A study of Homo sapiens with 6 samples.

Results

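The lysosome is the acidic compartment in which cells break down proteins, glycans and lipids, and the expression of 48 genes that build it was compared between Hep-G2 cells with and without knockdown of CLGN, the gene of the endoplasmic reticulum chaperone calmegin. The 48 were taken by gene name from a table of 58735 genes and comprised 3 regulators, 6 membrane proteins, 24 luminal enzymes and cofactors and 15 subunits or accessory subunits of the vacuolar proton pump (V-ATPase). Hep-G2 is a human liver tumour line that the labels describe as HCC and hepatocytes. The study used it to ask how the loss of CLGN changes liver cancer cells. RNA-seq libraries were made from total RNA of 3 control samples (sh-NC, treatment shcontrol, genotype WT) and 3 knockdown samples (sh-CLGN, treatment shCLGN, genotype CLGN knock down). Both groups had received a lentiviral short hairpin and a drug selection, with a single hairpin sequence in each group, so that an effect of CLGN and an effect of that hairpin cannot be told apart. Nothing in the labels says that the samples came from separate cultures, so the p-values measure the spread between these samples, which may be technical.

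Hydrolases reach the lysosome by way of the endoplasmic reticulum and the Golgi, where most are tagged with mannose 6-phosphate. The V-ATPase acidifies the lumen: its V1 sector hydrolyses ATP in the cytosol and its V0 sector carries protons across the membrane. Many lysosomal genes are controlled together by the MiT family of transcription factors (TFEB, TFE3, MITF and TFEC), which bind a palindromic DNA motif, the CLEAR element, and which the kinase complex mTORC1 restrains at the lysosomal surface.

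Libraries held 14955816 to 16244639 reads assigned to genes, and replicates correlated at 0.988 or more on the log2 scale. Mitochondrial genes took from 3.25% to 4.02% of reads in the controls and from 5.49% to 5.80% after knockdown, and 23578 to 23793 genes had a read in sh-NC against 26814 to 27006 in sh-CLGN. The part of these differences in the lysosomal results was not tested. CLGN (ENSG00000153132) stood at 24.1, 21.0 and 26.1 FPKM (fragment counts divided by gene length and by the size of the library) in sh-NC and at 9.48, 8.88 and 8.60 FPKM in sh-CLGN. It fell by 1.31 on the log2(FPKM + 1) scale (adjusted p = 8.35e-06, limma), and the groups did not overlap. Of 12 hepatocyte markers, all were detected, 7 fell and 4 rose, and their summed level was 8196 to 8458 FPKM in sh-NC and 8280 to 8882 FPKM in sh-CLGN. Of 12 fibroblast markers, 8 passed the filter on low values, 4 of them (COL1A1, COL3A1, TAGLN and LUM) only through sh-CLGN, where they had to be higher. The other 4 rose. With the control mean first, COL1A2 stood at 4.20 and 38.7 FPKM and SPARC at 8.53 and 73.2 FPKM. VIM stood at 49.5 and 85.1 FPKM and PDGFRB at 2.12 and 2.76 FPKM. The summed level of all 12 was 64.3 to 69.1 FPKM in the controls and 223 to 225 FPKM after knockdown. Of the markers below the filter, PDGFRA had 46 to 70 reads per control library and 136 to 179 per knockdown library. DCN, THY1 and FAP had at most 1 read in any library. Of 10 macrophage markers, only CD14 and LYZ passed the filter, CD14 through sh-NC alone. LYZ was lower. Below the filter, PTPRC, CSF1R, CD163 and MRC1 had 0 to 4 reads per library, TYROBP 2 to 7, ITGAM 6 to 14 and FCER1G 2 to 33. AIF1 went the other way from LYZ, with 1 to 3 reads per control library and 12 to 20 per knockdown library. The part of the fibroblast markers in the lysosomal results was not tested. These are bulk samples, in which fewer cells of a type and less RNA per cell cannot be told apart.

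The lysosomal genes moved in both directions, with most falls among the luminal enzymes and most rises among the V-ATPase subunits. Of 46 that passed the filter (at least 1 FPKM in at least 3 libraries), 22 were lower and 11 higher in sh-CLGN with an adjusted p at or under 0.05, while 13 did not pass. These are 47.8% and 23.9% of the tested members, beside 39.0% lower and 26.7% higher among all 13074 genes tested. With the deposited scaling the list as a whole thus stood close to the background. With quantile normalization 23 of the 46 were higher, beside 30.2% of all genes. Past a log2 fold change of 1 as well, there was 1 member lower (LIPA) and 0 higher, where 3.19% and 3.09% of all genes passed by limma. No other tested member reached that fold at any p, the largest rise being 0.75 in ATP6V1D. The libraries of the groups did not overlap for 24 members that were lower and 11 that were higher, beside 41.5% and 28.7% of all genes. The median log2 fold change was -0.13, against -0.08 over all tested genes and -0.12 over the 10986 tested protein-coding genes. Within the list, luminal enzymes and cofactors counted 14 lower and 2 higher of 24, with a median of -0.29. These counts depended on the scaling. Under scaling by total reads 11 were lower and 7 higher (median -0.13), beside 26.2% and 37.9% of all genes. With quantile normalization 13 were lower and 9 higher (median -0.17), beside 32.5% and 30.2% of all genes. The V-ATPase genes counted 3 lower and 7 higher of 15, with a median of 0.07, and the V1 sector 0 lower and 6 higher of 8, with a median of 0.30.

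**Figure D1:**
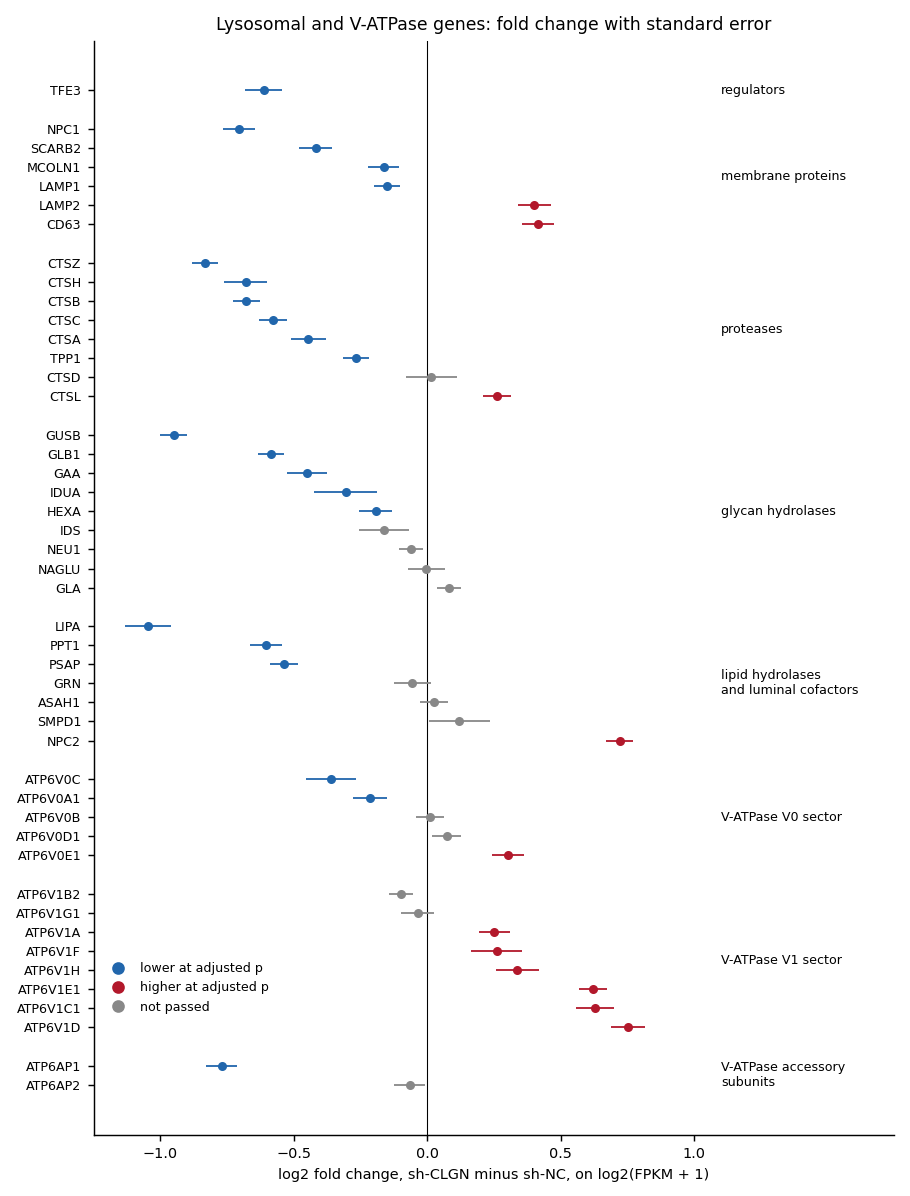
Log2 fold change (sh-CLGN minus sh-NC, horizontal axis) of the 46 tested lysosomal genes, grouped by role and coloured by call. Points are limma estimates and bars their standard errors, from 3 libraries a group. Most luminal enzymes lie left of 0 down to LIPA at -1.05, and the V1 subunits reach 0.75 at ATP6V1D.

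Among the 3 regulators, TFE3 was the one that passed the filter. TFE3 (ENSG00000068323, chromosome X, 49028726 to 49043486, minus strand), a transcription factor that activates lysosomal genes, stood at 48.7, 47.6 and 41.6 FPKM in sh-NC and at 28.1, 30.1 and 30.8 FPKM in sh-CLGN. Every knockdown library was below every control library, and TFE3 fell by 0.61 ± 0.07 (SE, adjusted p = 0.000148). TFEB, the best known regulator of lysosome formation, was near the limit of detection at 0.609, 0.764 and 0.767 FPKM against 0.543, 0.508 and 0.537 FPKM, from 47 to 67 reads per library. It did not pass the filter and was not tested, although the 3 knockdown libraries were the lowest. MITF, the melanocyte and osteoclast member, had 0 to 2 reads per library.

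Stretches of 6 promoters are shown because they hold the longer form of the motif that this family of factors binds, which most member promoters did not hold. RefSeq windows of 300 bases, from 250 before to 50 after 1 start per gene, were matched for 37 of the 48 members on GRCh38.p14. The palindrome CACGTG was present in 10 of these 37 (27.0%), against 7.43% of all 27305 promoters and 10.4% of the 9073 promoters of tested genes. The longer palindrome TCACGTGA, which contains CACGTG, was present in 6 of 37 (16.2%), against 1.04% of all promoters and 1.96% of those of tested genes. Both motifs read the same on both strands. The stretches of 90 bases around the matches in these 6 genes follow, 5′ to 3′ on the gene's strand, with CACGTG or TCACGTGA in capitals.
LAMP1 (chr13:113297188-113297277, plus strand): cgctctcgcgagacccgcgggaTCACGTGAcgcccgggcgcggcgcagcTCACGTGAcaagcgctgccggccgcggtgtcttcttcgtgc
MCOLN1 (chr19:7522560-7522649, plus strand): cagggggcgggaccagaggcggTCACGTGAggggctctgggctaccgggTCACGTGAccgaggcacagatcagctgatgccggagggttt
CTSA (chr20:45891287-45891376, plus strand): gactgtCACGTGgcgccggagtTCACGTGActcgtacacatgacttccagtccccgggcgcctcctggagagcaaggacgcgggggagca
GAA (chr17:80101482-80101571, plus strand): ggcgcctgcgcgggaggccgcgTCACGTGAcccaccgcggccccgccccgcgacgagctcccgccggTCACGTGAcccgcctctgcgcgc
ATP6V0D1 (chr16:67481150-67481239, minus strand): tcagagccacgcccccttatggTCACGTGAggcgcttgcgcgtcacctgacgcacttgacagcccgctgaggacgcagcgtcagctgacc
ATP6V1G1 (chr9:114587688-114587777, plus strand): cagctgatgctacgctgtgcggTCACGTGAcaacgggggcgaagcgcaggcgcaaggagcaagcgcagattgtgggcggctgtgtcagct
LAMP1 held the most copies, with 6 of CACGTG and 2 of TCACGTGA over its whole window. Of the 6 genes with TCACGTGA, 4 were lower in sh-CLGN (CTSA, GAA, LAMP1 and MCOLN1), 0 were higher, and ATP6V0D1 and ATP6V1G1 did not pass. The falls of LAMP1 and MCOLN1 were small (0.15 and 0.16) and turned to 0.04 and 0.01 above 0 when libraries were scaled by their total reads. Members without TCACGTGA counted 15 lower and 6 higher, with a median log2 fold change of -0.22 against -0.16 with it. The other CACGTG carriers were ATP6V0B, CD63, CTSD and NEU1, of which CD63 was higher and 3 did not pass. Over all 10 members with CACGTG, 4 were lower and 1 higher, with a median of -0.05. Members without CACGTG counted 15 lower and 5 higher, with a median of -0.31. The scanned windows of LIPA, GUSB, CTSZ, NPC1 and ATP6AP1, which had the largest falls, held neither motif. That of LIPA (chr10:89414630-89414929) lay wholly beyond the annotated end of the gene at 89414557. Other starts of LIPA were not scanned, so it cannot be called a gene without the motif. A match is a description of these windows and not a measured binding site.

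The membrane proteins divided, with 4 lower and 2 higher of 6, beside 39.0% and 26.7% of all tested genes. NPC1 (ENSG00000141458, chromosome 18, 23506184 to 23586898, minus strand), which exports cholesterol from the lysosome, stood at 16.0, 17.6 and 16.5 FPKM in sh-NC and at 9.44, 9.71 and 10.4 FPKM in sh-CLGN. It fell by 0.71 ± 0.06 (adjusted p = 3.19e-05) with no overlap between groups. SCARB2, the membrane receptor that carries β-glucocerebrosidase to lysosomes, stood at 13.1, 13.1 and 14.96 FPKM against 10.1, 10.1 and 9.83 FPKM and fell by 0.42 ± 0.06 (adjusted p = 0.000606). The tetraspanin CD63 was among the most abundant members and moved the other way. Its values were 145, 128 and 128 FPKM in sh-NC and 181, 179 and 175 FPKM in sh-CLGN, a rise of 0.41 ± 0.06 (adjusted p = 0.000488). LAMP2, a major membrane glycoprotein that also serves chaperone-mediated autophagy, rose from 21.8, 19.9 and 23.3 FPKM to 28.7, 29.2 and 28.6 FPKM (0.40 ± 0.06, adjusted p = 0.000744). Its partner LAMP1 and the calcium channel MCOLN1 were lower at adjusted p of 0.0257 and 0.0389, and both turned in sign with the scaling by total reads. The call of LAMP1 was lost when any library but sh-NC replicate 3 was left out (adjusted p = 0.0553 to 0.0959). That of MCOLN1 was lost without replicate 1 or 3 of sh-NC or replicate 1 or 2 of sh-CLGN (adjusted p = 0.0618 to 0.132).

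Most proteases were lower, with 6 of 8 lower, 1 higher and a median log2 fold change of -0.51. Of all tested genes, 39.0% were lower and 26.7% higher. CTSZ (ENSG00000101160, chromosome 20, 58995185 to 59007247, minus strand), a cathepsin that removes residues from the carboxyl end of proteins, was the most abundant of them per length at 122, 131 and 123 FPKM in sh-NC. In sh-CLGN it stood at 70.9, 68.3 and 70.3 FPKM, which was 55.8% of the control mean, and fell by 0.83 ± 0.05 (adjusted p = 6.23e-06). CTSH, an aminopeptidase, stood at 6.96, 7.51 and 7.21 FPKM against 4.50, 3.59 and 4.34 FPKM and fell by 0.68 ± 0.08 (adjusted p = 0.000173). CTSB, CTSC and CTSA, which are respectively a broad cysteine protease, the activator of immune serine proteases and the protective protein of β-galactosidase, fell by 0.68, 0.58 and 0.45. TPP1, a tripeptidyl peptidase, fell by 0.27. Its call was lost with quantile normalization and with scaling by total reads, alone or with the GC trend also removed. It was also lost with the fold tested against 1.2. CTSL, a cysteine endopeptidase, moved the other way. It stood at 30.9, 30.7 and 31.2 FPKM in sh-NC and at 39.7, 36.0 and 36.0 FPKM in sh-CLGN, a rise of 0.26 ± 0.05 (adjusted p = 0.00296). CTSD, the main aspartyl protease, did not pass, with a difference of 0.02 (95% interval -0.20 to 0.23). In the annotation, 52.7% of its exonic bases are shared with other genes, so that its reads could be lost or divided in counting.

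**Figure D2:**
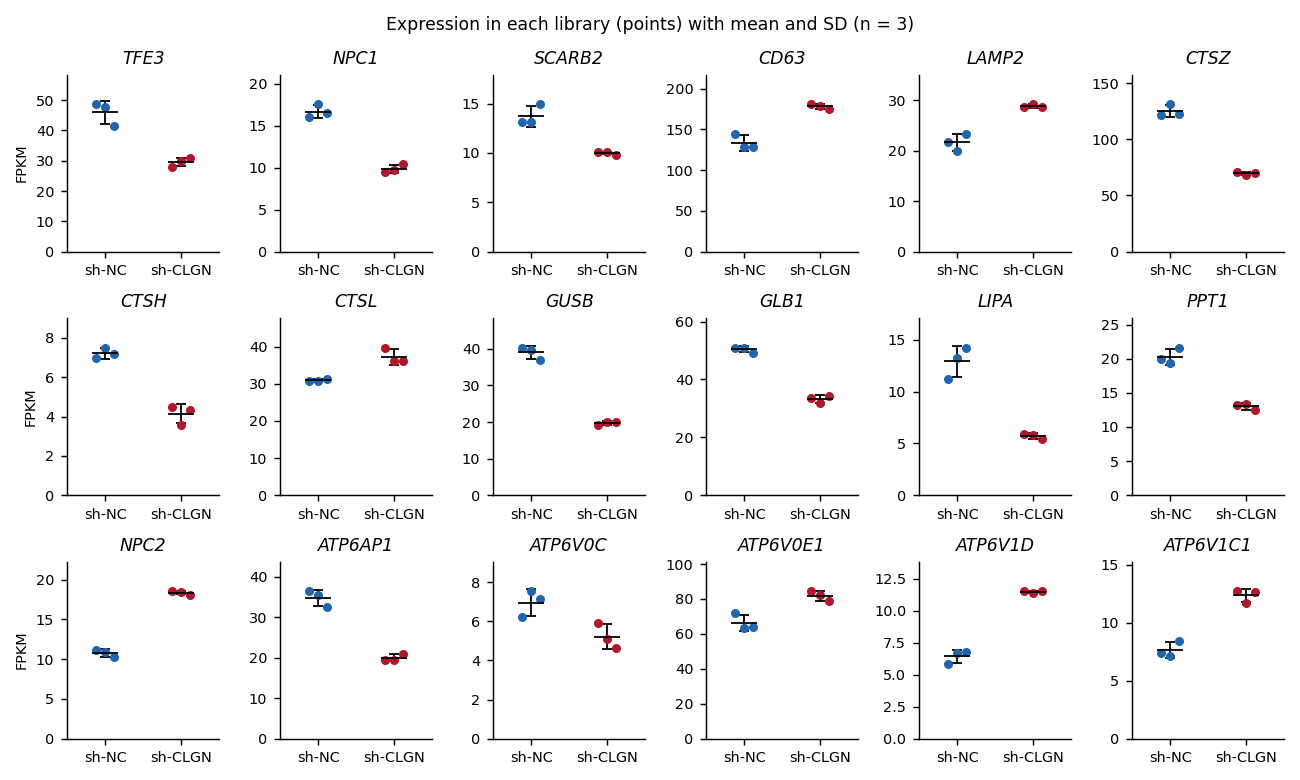
FPKM (vertical axis, from 0) of 18 lysosomal genes in each sh-NC and sh-CLGN library, with the mean as a line and the SD as bars (n = 3). The groups do not overlap in any of the 18 panels, and NPC2, CD63, LAMP2, CTSL, ATP6V0E1, ATP6V1C1 and ATP6V1D are the panels in which sh-CLGN is higher.

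The glycan hydrolases had 5 lower and 0 higher of 9, beside 39.0% and 26.7% of all tested genes. With scaling by total reads 3 were lower and 3 higher, beside 26.2% and 37.9% of all genes. The counts were the same with the GC trend removed, beside 34.2% and 32.8%. With quantile normalization 5 were lower and 3 higher, beside 32.5% and 30.2%. GUSB (ENSG00000169919, chromosome 7, 65960684 to 65982314, minus strand), the β-glucuronidase that degrades glycosaminoglycans, stood at 40.3, 39.6 and 37.0 FPKM in sh-NC and at 19.0, 20.0 and 20.0 FPKM in sh-CLGN. This was 50.5% of the control mean, a fall of 0.95 ± 0.05 (adjusted p = 5.13e-06). GLB1, the β-galactosidase that degrades gangliosides and keratan sulfate, stood at 51.0, 51.0 and 49.3 FPKM against 33.7, 31.8 and 34.4 FPKM and fell by 0.58 ± 0.05 (adjusted p = 2.94e-05). The glycogen-degrading GAA fell by 0.45 and HEXA, the α subunit of β-hexosaminidase, by 0.19. The call of GAA was lost with quantile normalization and with the fold tested against 1.2. That of HEXA was lost with TPM, with scaling by total reads and with the GC trend removed, and also without sh-NC replicate 2 or sh-CLGN replicate 2 or 3 (adjusted p = 0.0826 to 0.0871). IDUA, the α-iduronidase, was at 1.36 to 2.55 FPKM and passed narrowly (-0.31, adjusted p = 0.0492), and its sign turned once the trend of fold change with GC content was removed. Its call held only when sh-NC replicate 3 was the library left out (adjusted p = 0.0608 to 0.137 without each of the others). GLA, IDS, NAGLU and NEU1 did not pass, with differences from -0.16 to 0.08. The 95% interval of NAGLU, which degrades heparan sulfate, was -0.16 to 0.16.

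Among lipid hydrolases and luminal cofactors, genes of one cholesterol pathway moved in opposite directions. LIPA (ENSG00000107798, chromosome 10, 89213569 to 89414557, minus strand), the acid lipase that frees cholesterol and fatty acids from lipoproteins, stood at 11.3, 13.2 and 14.2 FPKM in sh-NC and at 5.95, 5.78 and 5.41 FPKM in sh-CLGN. It was at 44.3% of the control mean and fell by 1.05 ± 0.09 (adjusted p = 2.86e-05). Without sh-NC replicate 3 it fell by 0.98, which left 0 members past the fold threshold. NPC2 (ENSG00000119655, chromosome 14, 74476192 to 74494177, minus strand), which binds the freed cholesterol and hands it to NPC1, stood at 11.2, 10.8 and 10.2 FPKM and then at 18.5, 18.4 and 18.1 FPKM. It rose by 0.72 ± 0.05 (adjusted p = 1.53e-05), whereas LIPA and NPC1 were lower. PPT1, which removes fatty acids from lipid-modified proteins, stood at 19.9, 19.4 and 21.6 FPKM against 13.2, 13.4 and 12.4 FPKM and fell by 0.60 ± 0.06 (adjusted p = 6.51e-05). PSAP, the precursor of the saposins that present sphingolipids to their hydrolases, had the highest level per length of all 48 genes, at 508 ± 27.2 FPKM in sh-NC and 349 ± 1.77 FPKM in sh-CLGN (SD, n = 3). It fell by 0.54 (adjusted p = 7.09e-05), and it was singled out after its values were seen. GRN, ASAH1 and SMPD1 did not pass, with 95% intervals of -0.22 to 0.10, -0.10 to 0.14 and -0.15 to 0.39. Summed over the 24 luminal genes, expression was 1192.5 ± 52.6 FPKM in sh-NC and 885 ± 8.89 FPKM in sh-CLGN, sums of which PSAP was the largest part.

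The 3′ UTRs of LIPA, GUSB and NPC2 are shown because they contain part of the sequence that the knockdown hairpin targets. A hairpin's guide strand can lower other transcripts that pair with its seed, the bases next to its 5′ end. The heptamers TACCACA and ATACCAC are overlapping 7-base windows of the target given in the study's methods. TACCACA is the window that pairs with the guide's seed, and ATACCAC is shifted by 1 base. In the longest 3′ UTR of protein-coding transcripts, ATACCAC was present in 5 of 45 tested members (11.1%), against 7.31% of 10867 tested genes, and TACCACA in 3 of 45 (6.67%), against 9.69%. Stretches of 25 bases around the ATACCAC sites of LIPA, GUSB and NPC2 follow, on the transcript's strand and with the heptamer in capitals (GRCh38, GENCODE 29).
LIPA (site at chr10:89214021-89214027, minus strand): gtggagactATACCACtattttttc
GUSB (site at chr7:65960881-65960887, minus strand): gcaagactgATACCACctgcgtgtc
NPC2 (site at chr14:74479737-74479743, minus strand): cacaatcttATACCACcaagcatgc
LIPA and GUSB, the members with the largest falls, and NPC2, the luminal gene with the largest rise, all had the shifted window and not the seed match. The other carriers of ATACCAC were ASAH1, which did not pass, and ATP6V1C1, which rose and also held TACCACA. CTSB and IDS held TACCACA alone. The median log2 fold change was 0.02 for the 5 members with ATACCAC and -0.16 for those without it. Over all tested genes it was -0.21 for the 794 with ATACCAC and -0.12 for those without. For TACCACA, the window that pairs with the seed, it was -0.16 for the 3 members with it and -0.13 for those without. Over all tested genes it was -0.13 for the 1053 with TACCACA and -0.12 for those without. The part of these sites in the falls of LIPA and GUSB was not tested.

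The V-ATPase genes are given by sector. In the V0 sector, which forms the proton channel, 2 of 5 were lower and 1 higher, beside 39.0% and 26.7% of all tested genes. With TPM, with scaling by total reads and with the GC trend removed, 0 were lower and 3 higher. Of all genes, 26.2% to 34.2% were lower and 32.8% to 37.9% higher at these settings. ATP6V0C, the proteolipid that forms the rotor ring, stood at 6.22, 7.54 and 7.12 FPKM against 5.90, 5.09 and 4.63 FPKM and fell by 0.36 ± 0.09 (adjusted p = 0.0104). Its reads numbered 112 to 165 per library and 72.1% of its exonic bases are shared with other genes, so its level is uncertain, and its call was lost with TPM, with scaling by total reads and with the GC trend removed. ATP6V0A1, the subunit through which protons enter and leave the ring, stood at 10.5, 11.0 and 9.78 FPKM against 8.28, 8.97 and 9.26 FPKM and fell by 0.22 ± 0.06 (adjusted p = 0.0185), a call that was lost with TPM, with quantile normalization, with scaling by total reads and with the GC trend removed. It was also lost without sh-NC replicate 2 or sh-CLGN replicate 1 (adjusted p = 0.0619 and 0.0723). ATP6V0E1, a small membrane subunit, was the most abundant of the sector per length and rose from 71.7, 63.5 and 63.7 FPKM to 84.5, 82.1 and 78.8 FPKM (0.30 ± 0.06, adjusted p = 0.00281).

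In the V1 sector, 6 of 8 were higher and 0 lower, beside 26.7% higher and 39.0% lower among all tested genes. ATP6V1D (ENSG00000100554, chromosome 14, 67294371 to 67360265, minus strand), a part of the central stalk that turns with the ring, stood at 5.83, 6.70 and 6.77 FPKM in sh-NC and at 11.5, 11.4 and 11.5 FPKM in sh-CLGN. It rose by 0.75 ± 0.06 (adjusted p = 3.47e-05), the largest rise among the members. ATP6V1C1, which joins the V1 sector to V0, stood at 7.44, 7.13 and 8.44 FPKM against 12.7, 11.7 and 12.7 FPKM and rose by 0.63 ± 0.07 (adjusted p = 0.000145). The peripheral stalk subunit ATP6V1E1 rose by 0.62, and ATP6V1H and the catalytic subunit ATP6V1A by 0.34 and 0.25. ATP6V1F passed narrowly (0.26, adjusted p = 0.0434), and its libraries overlapped between groups. The call held only when sh-NC replicate 1 was the library left out (adjusted p = 0.0553 to 0.130 without each of the others). ATP6V1B2, the partner of the catalytic subunit, and the stalk subunit ATP6V1G1 did not pass (-0.10 and -0.04). Summed over the 8 genes, V1 expression was 304 ± 9.68 FPKM in sh-NC and 360 ± 4.43 FPKM in sh-CLGN.

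Of the accessory subunits, 1 of 2 was lower. ATP6AP1 (ENSG00000071553, chromosome X, 154428632 to 154436516, plus strand), which guides V-ATPase assembly in the endoplasmic reticulum, stood at 36.5, 35.5 and 32.7 FPKM in sh-NC and at 19.5, 19.5 and 21.0 FPKM in sh-CLGN. It fell by 0.77 ± 0.06 (adjusted p = 2.09e-05), the largest fall among the V-ATPase genes. ATP6AP2, the prorenin receptor, did not pass (-0.07, 95% interval -0.21 to 0.07).

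**Figure D3:**
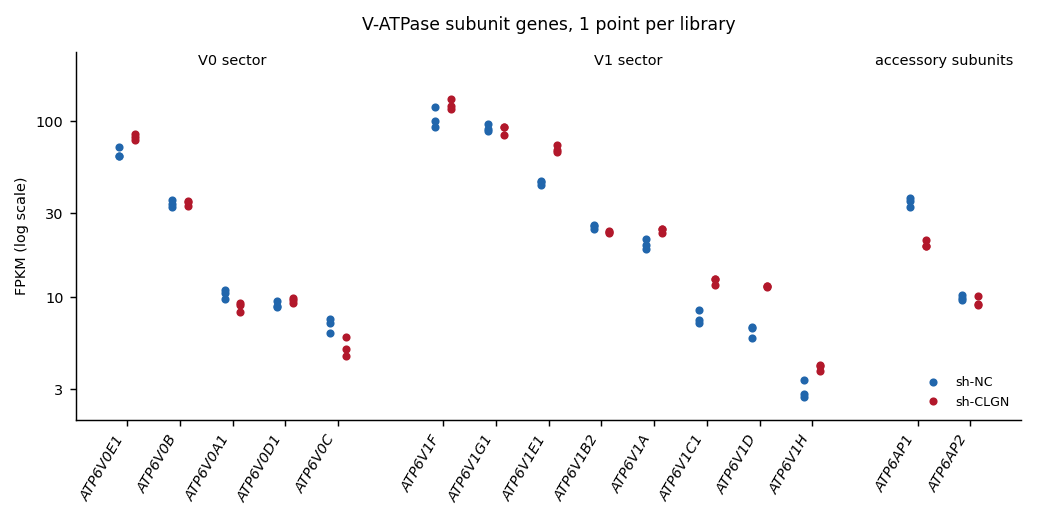
FPKM on a log axis of the 15 V-ATPase genes, with 1 point per library and the subunits ordered by their sh-NC mean within each sector. ATP6V1E1, ATP6V1C1, ATP6V1D and ATP6V1H show sh-CLGN above sh-NC in the V1 sector, and ATP6AP1 shows it below.

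Fold changes across the genome varied with the GC content of the transcripts, in which the luminal and V1 genes also differed. Across 13068 tested genes with a GC value, Spearman's rho of fold change with GC content was -0.32. With genes cut by GC content into 10 equal bins, the median log2 fold change was 0.23 in the lowest bin and -0.29 in the highest. Across the 46 members rho was -0.25, a description over genes that share the same libraries. The median GC content was 43.6% in the V1 sector and 52.6% in the luminal genes. With the GC trend removed, 34.2% of all genes were lower and 32.8% higher. The luminal genes then counted 13 lower and 8 higher of 24, with a median of -0.16. The V1 genes counted 1 lower and 6 higher of 8, with a median of 0.46. LIPA then fell by 1.08, and ATP6V1D rose by 0.79.

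**Figure D4:**
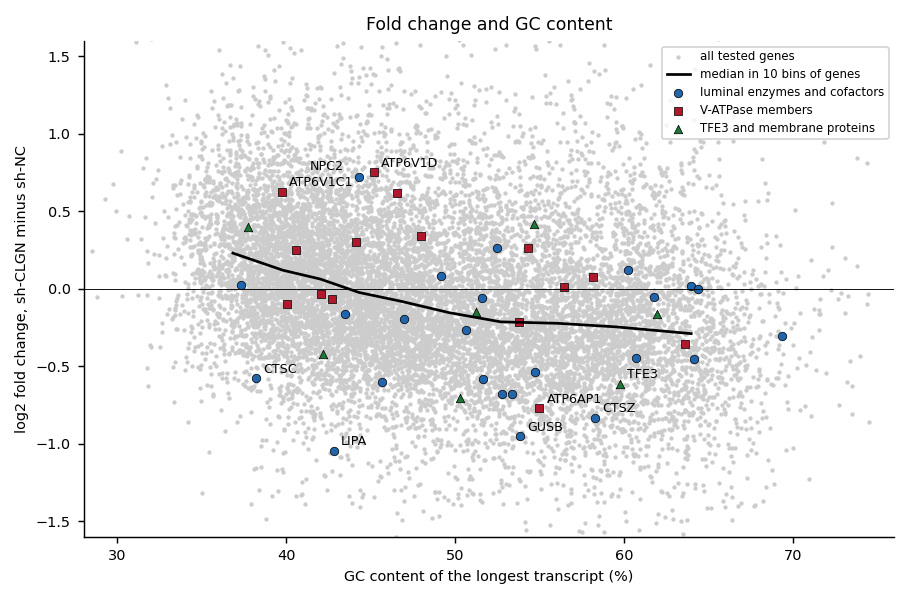
Log2 fold change (vertical axis) against the GC content of the longest transcript (horizontal axis) for all tested genes in grey and the 46 lysosomal genes in colour. Genes outside the vertical range are not drawn. The black line, the median in each of 10 bins of genes, falls from 0.23 to -0.29, and LIPA, GUSB and CTSZ lie below it while NPC2, ATP6V1D and ATP6V1C1 lie above it.

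The scaling of the libraries shifted the counts of lysosomal genes lower and higher. The deposited FPKM implied library sizes of 0.933 to 0.953 times the assigned reads in sh-NC and 1.07 to 1.08 times in sh-CLGN. Scaling by total reads instead moved the median of all genes by 0.16, and the members then counted 15 lower and 18 higher, beside 26.2% and 37.9% of all genes. Scaled to a fixed sum per library (TPM), the shift was 0.11 and the counts were 16 lower and 14 higher. Across all 18 alternatives 17 members kept their call and direction. The 13 that stayed lower were TFE3, NPC1, CTSA, CTSB, CTSC, CTSH, CTSZ, GLB1, GUSB, LIPA, PSAP, PPT1 and ATP6AP1. The 4 that stayed higher were NPC2, ATP6V1C1, ATP6V1D and ATP6V1E1.

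**Figure D5:**
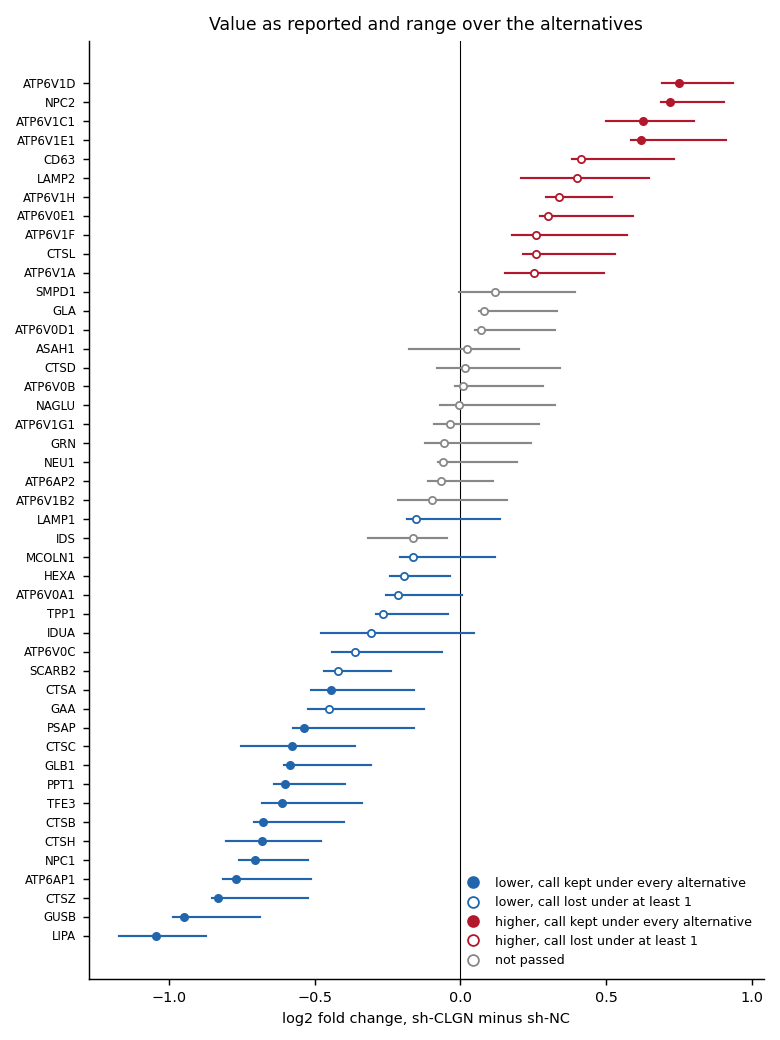
Log2 fold change of the 46 tested genes as reported (points) with the lowest and highest value over the 18 alternatives (lines). Filled points mark the 17 genes whose call held under each alternative, and among called genes the lines of LAMP1, MCOLN1, IDUA and ATP6V0A1 cross 0.

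A further 87 lysosomal genes outside the 48 were described by list, of which 77 passed the filter, 33 were lower and 22 higher (42.9% and 28.6%, near the 39.0% and 26.7% of all tested genes). The counts of the lists that follow are to be read against the same background. Among other hydrolases and cofactors, 16 of 27 were lower and 6 higher, with a median of -0.41. The cysteine protease CTSF fell from 12.6 ± 0.533 to 3.81 ± 0.291 FPKM (SD, n = 3), a log2 fold change of -1.50 (adjusted p = 2.30e-06). In the other direction CTSO rose from 4.01 to 11.5 FPKM (1.32). CTSK, the collagen-degrading protease of osteoclasts, stood at 1.29, 0.799 and 1.06 FPKM in sh-NC and at 2.34, 3.04 and 2.56 FPKM in sh-CLGN. Its log2 fold change was 0.83, but the controls alone would not have met the filter, so its call is no evidence of a rise. Cathepsins thus held both the largest fall (CTSF) and the largest rise (CTSO) of this list. Among other membrane proteins, 5 of 14 were lower and 3 higher. SIDT2 and LAPTM4B fell by 0.55 and 0.49, and the cation channel TPCN1 and the sialic acid exporter SLC17A5 rose by 0.59 and 0.46.

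Of 9 genes of mannose 6-phosphate tagging and enzyme sorting, 5 were lower and 0 higher. IGF2R, the large receptor that delivers tagged hydrolases, fell from 39.6 ± 2.37 to 23.1 ± 1.61 FPKM (-0.75, adjusted p = 4.23e-05), and NAGPA, which uncovers the tag, fell by 0.43. Of 19 genes of mTORC1 at the lysosome and the control of TFEB, 5 were lower and 9 higher. TFEC, the fourth MiT factor, stood at 0.285 ± 0.0356 FPKM in sh-NC and 3.89 ± 0.193 FPKM in sh-CLGN. It passed the filter only through sh-CLGN, so its call is no evidence of a rise, and without it 8 of 18 were higher. The GTPase RRAGD rose by 0.74, while the anchor LAMTOR1 and the mTORC1 subunit RPTOR fell by 0.58 and 0.44. Of 8 other V-ATPase genes that passed the filter, 2 were lower and 4 higher. ATP6V0E2, a relative of ATP6V0E1, fell by 0.63, and ATP6V1E2, a relative of ATP6V1E1, passed the filter only through sh-NC (-0.34). The call of ATP6V1E2 is thus no evidence of a fall, and without it 1 of 7 was lower. RNASEK (0.41), a subunit that rested on 19 to 52 reads per library, and the a3 subunit gene TCIRG1 (0.32) were the most raised. RNASEK stood at 0.841, 0.727 and 1.05 FPKM in sh-NC and at 1.68, 1.02 and 1.80 FPKM in sh-CLGN. The controls alone would not have met the filter, so the call of RNASEK is no evidence of a rise. Single libraries decided these calls: RNASEK did not pass without replicate 1 or 2 of sh-NC or replicate 1 or 3 of sh-CLGN (adjusted p = 0.0792 to 0.114), TCIRG1 without sh-CLGN replicate 3 (0.0639) and ATP6V1E2 without sh-CLGN replicate 2 (0.0595).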

How the data were processed

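The deposited table held FPKM values of 58735 genes in 6 libraries of Hep-G2 cells, 3 for each hairpin. The submitters' processing notes name HISAT2 2.0.5, featureCounts and GRCh38, the library kit in the labels is NEBNext Ultra RNA, and the strand setting of the counting is not given in the sources used here. The FPKM were made by the authors from gene counts and gene length. All gene positions equalled GENCODE release 29, which was used for GC content, exon overlap and 3′ UTRs. Whole reads (tolerance 0.01) were recovered for 100% of values, so depth is known, and the read totals and the library sizes behind the FPKM were computed from them.

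The test was limma 3.58.1 (lmFit, eBayes with trend, R 4.3.3) on log2(FPKM + 1), after a filter of at least 1 FPKM in at least 3 libraries, with Benjamini-Hochberg adjustment over 13074 genes and a threshold of 0.05. Fold changes on this scale understate changes of low genes. It was checked on simulated data. Values per library were given for CLGN, the regulators, members past both thresholds and, in each of 8 role groups, up to 2 called members with the largest rise and 2 with the largest fall. For other lysosomal genes, up to 2 per list and direction were named. A gene that this rule names is not reported here. The members and lists were chosen with earlier results of these data known. Promoters came from RefSeq (GRCh38.p14). Alternatives numbered 18, of which 6 left out 1 library. Replicate numbers did not pair the libraries.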

Additional observations from a re-analysis of the deposited data

How the results depend on the processing

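Of 33 called members, 17 kept call and direction under all 18 alternatives. Members lower ranged from 18 to 21 and members higher from 10 to 11 when 1 library was left out. The shares over all genes were then 34.9% to 39.6% and 23.5% to 27.4%. The members' median log2 fold change was -0.14 to -0.11, with 0 to 1 members past both thresholds. With the fold tested against 1.2 (treat), 13 were lower and 4 higher, beside 20.2% and 13.3% of all genes. Members higher numbered 23 with quantile normalization and 18 with total reads, beside 30.2% and 37.9% of all genes. They numbered 19 with the GC trend removed, beside 32.8% of all genes. They also numbered 19, beside 32.4%, with total reads and the GC trend removed together, an alternative chosen after seeing the data. With quantile normalization and with total reads, 0 members passed both thresholds. The members' median was -0.083 with a mean of at least 5 FPKM, -0.0016 with TPM, 0.10 with quantile normalization, 0.064 with total reads, -0.037 with the GC trend removed and -0.026 with both. The all-gene median moved by 0.11 with no filter, -0.13 with a mean of at least 5 FPKM, 0.11 with TPM and 0.16 with total reads. Turns in sign where the value passed the threshold before or after were as follows. Log2 fold changes turned with quantile normalization for LAMP1 (0.14), NAGLU (0.26), NEU1 (0.19), GRN (0.24), ATP6V1B2 (0.16) and ATP6V1G1 (0.27). They did so with total reads for LAMP1 (0.040), MCOLN1 (0.012), NAGLU (0.18) and NEU1 (0.13). With the GC trend removed, they did so for LAMP1 (0.024), MCOLN1 (0.11), IDUA (0.045), NAGLU (0.30), NEU1 (0.12), GRN (0.21) and ASAH1 (-0.18). With both, they did so for LAMP1 (0.053), MCOLN1 (0.12), IDUA (0.0082), NAGLU (0.32), NEU1 (0.14), GRN (0.24), ASAH1 (-0.16) and ATP6V0A1 (0.0053). Values that passed at neither setting also turned, ATP6AP2 with quantile normalization (0.074) and NAGLU (0.12), NEU1 (0.062), GRN (0.070), ATP6V1B2 (0.024), ATP6V1G1 (0.090) and ATP6AP2 (0.052) with TPM among them. The cause was not tested. With the replicate block, 18 members were lower and 10 higher, beside 36.4% and 25.1% of all genes. LAMP1, MCOLN1, HEXA, IDUA and ATP6V1F then lost their calls. Deviations of libraries with the same number correlated at -0.02, -0.05 and -0.15, so the numbers were not taken as pairs. The filter kept out TFEB and MITF, and with no filter neither passed.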
